A study of Mus musculus with 45 samples.

Results

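Lhx9, Nfix, Gata6, Epha6, Dcc, Vgf, Sbno2 and Arvcf are 8 developmental and signalling genes. Each lay within 70 kb of a bisulfite PCR amplicon in a study of diet-induced obesity in the mouse colonic epithelium. Other genes near amplicons were not searched for here. They were 8 of 24918 gene entries in the expression table. Each gene had 1 amplicon, and the 8 amplicons held 87 of the 233 CpGs measured in 23 amplicons. The genes were taken from a named list, and a CpG belonged to a gene when it lay within 70 kb of the gene's span. The rule itself used no methylation or expression value, but the genes were listed with earlier results of these data known.

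Colonic epithelium was taken from male C57BL/6J mice (C57BL/6 in the labels) that were 6 weeks old when the diets began. Control mice received the low-fat diet (10% of calories) during 20 weeks. Obese mice were kept on the high-fat diet (60%) during the same 20 weeks, and formerly obese mice spent 15 weeks on high-fat food followed by 5 weeks on low-fat food. Each group had 5 mice in sequencing of bisulfite PCR amplicons (BSP-seq), in RNA sequencing (RNA-seq) and in whole-genome bisulfite sequencing (WGBS), for which a list of regions was used here. The labels give no difference between the groups other than diet. The paper describes the amplicon sequencing as deep. The amplicon table gave no number of reads per CpG, so the depth behind each methylation value is not known here. RNA-seq libraries held 15230391 to 22762095 counts.

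Bisulfite treatment converts unmethylated cytosine and leaves methylated cytosine in place, so the methylation of a CpG is read as the percentage of reads that keep the cytosine. In most mammalian tissue, CpG-dense stretches near the start of developmental genes carry little methylation, whereas CpGs in gene bodies and between genes are mostly methylated. The 8 genes differ in what they do. Lhx9, Nfix and Gata6 are transcription factors, of which Gata6 is known for its role in endoderm and gut epithelium. Epha6 is a receptor tyrosine kinase for ephrins, and Dcc is a receptor for the guidance cue netrin. Vgf is a precursor of secreted neuropeptides, Sbno2 is a transcriptional coregulator of the strawberry notch family, and Arvcf is a catenin that binds cadherins at cell junctions.

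The sequences of 3 amplicons are shown because their CpGs differed most from mouse to mouse (Lhx9), stood at low but uneven levels at a gene start (Epha6), or held 1 CpG far below its neighbours (Sbno2). All are the plus strand of GRCm38, read from the RefSeq genome, and capitals mark the measured CpGs. The Lhx9 run is chr1:138838374-138838673 and covers 300 bases and 19 of the 20 CpGs, all in a coding exon. The Epha6 run is chr16:60605091-60605248, the coding part with 17 of 21 CpGs. The Sbno2 run is chr10:80068779-80068987 with all 11 CpGs, and its last capitals mark the CpG with the low level.
Lhx9: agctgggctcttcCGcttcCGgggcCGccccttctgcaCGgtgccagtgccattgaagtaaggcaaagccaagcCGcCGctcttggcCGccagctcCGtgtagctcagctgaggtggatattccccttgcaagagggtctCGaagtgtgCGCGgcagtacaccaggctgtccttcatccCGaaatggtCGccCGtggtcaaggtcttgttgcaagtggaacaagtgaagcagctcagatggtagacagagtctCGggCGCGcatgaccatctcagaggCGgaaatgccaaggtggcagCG
Epha6: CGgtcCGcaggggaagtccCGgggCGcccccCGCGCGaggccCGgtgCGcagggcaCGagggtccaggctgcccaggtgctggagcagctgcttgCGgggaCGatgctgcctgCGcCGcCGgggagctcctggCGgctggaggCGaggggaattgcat
Sbno2: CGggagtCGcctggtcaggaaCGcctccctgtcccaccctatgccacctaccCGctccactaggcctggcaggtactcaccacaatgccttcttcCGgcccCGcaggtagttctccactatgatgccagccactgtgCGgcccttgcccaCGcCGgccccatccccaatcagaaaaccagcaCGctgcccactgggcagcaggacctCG

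The amplicons lay at different places relative to the genes. The Lhx9 amplicon (20 CpGs, chr1:138838358-138838672) was 9.1 kb inside the gene, in a coding exon of a gene that spans chr1:138825186-138847579 on the minus strand. The Epha6 amplicon (21 CpGs, chr16:60605091-60605271) lay 260 to 440 bases inside the annotated start of a gene of 952049 bases, with 17 CpGs in a coding exon and 4 outside the basic transcripts of GENCODE. An antisense transcript, Gm9017, also covered it. The Vgf amplicon (12 CpGs, chr5:137030763-137031012) lay 468 to 717 bases into that short gene, with 7 CpGs in a UTR, 3 in a coding exon and 2 in an intron. The other 5 amplicons were far from a start. The 4 Dcc CpGs (chr18:72115080-72115389) were in an intron 235.8 kb into the gene, and the 9 Nfix CpGs (chr8:84729886-84730011) in an intron 70.4 kb in. The 11 Sbno2 CpGs (chr10:80068779-80068986) were 33.8 kb in, 7 in a coding exon and 4 in an intron. The 6 Arvcf CpGs (chr16:18402836-18402936) were 54.7 kb in, 4 in a coding exon and 2 in an intron. The 4 Gata6 CpGs (chr18:10989325-10989429) lay 63.1 kb upstream of Gata6, within the antisense transcript 1010001N08Rik.

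Methylation fell into separate levels across the 8 genes. Over all 15 mice, the amplicon mean was 17.2% for Epha6, 19.5% for Lhx9 and 25.5% for Vgf. It was 73.1% for Dcc, 92.2% for Sbno2, 92.3% for Nfix, 96.0% for Arvcf and 96.9% for Gata6. Epha6, Lhx9 and Vgf were also the amplicons with most CpGs around them, with 34, 22 and 22 CpGs in 500 bases against 4 to 20 at the other 5 genes. Across the 8 amplicons, Pearson's r between the number of CpGs in 500 bases and mean methylation was −0.69 (Spearman's rho −0.68), and across all 23 amplicons it was −0.65 (rho −0.39). These points share the same mice and libraries, and no test was made of them. Arvcf stood apart from that order, with 20 CpGs in 500 bases and a level of 96.0%.

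**Figure D1:**
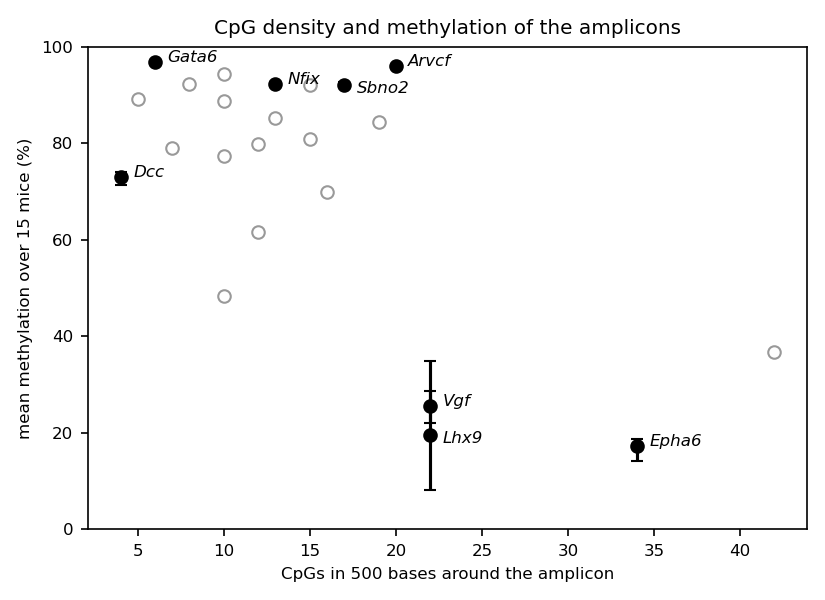
Mean methylation over 15 mice (%) against the number of CpGs in 500 bases around each amplicon. Filled points are the 8 named genes with bars from the lowest to the highest mouse, open points the other 15 amplicons. Lhx9, Vgf and Epha6 sit at 22 or more CpGs and under 30% methylation, and the Lhx9 bar runs from 8.10% to 34.9%.

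Within an amplicon, single CpGs could differ far more than mice did. In Dcc, the first CpG stood at 21.3%, whereas the other 3 stood between 84.8% and 94.8%. Across mice that first CpG ranged from 17.2% to 26.0%, so no mouse approached its neighbours. In Sbno2, the last CpG stood at 62.3% on average and between 58.4% and 64.6% in single mice, while the other 10 averaged 90.9% to 97.4%. The step from its neighbour, 25 bases away, was 35.0 percentage points. In Nfix, 2 CpGs (82.8% and 78.7%) were below the other 7, which averaged 93.9% to 97.1%. The Vgf CpGs ran from 6.71% to 71.4%, with a step of 49.1 points between CpGs 30 bases apart. The Epha6 CpGs ran from 3.61% to 48.0%, and the highest lay 7 bases from one at 22.0%. The lowest and highest CpGs were 95.5% and 97.8% in Gata6 and 93.6% and 97.8% in Arvcf, and 10.9% and 37.8% in Lhx9.

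**Figure D2:**
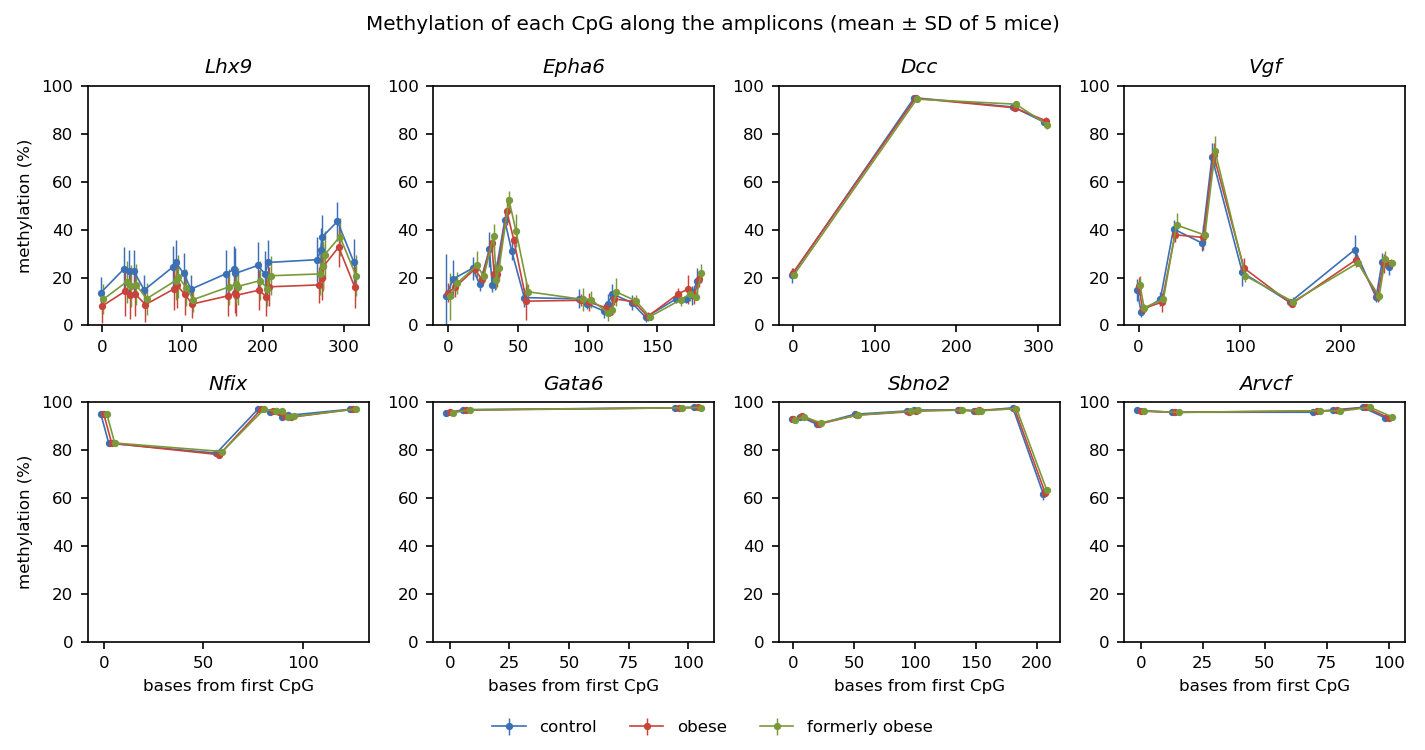
Methylation (%) of each CpG against its distance in bases from the first CpG of the amplicon, with 1 panel per gene. Points are means of 5 mice and bars their SD, in blue for control, red for obese and green for formerly obese mice. The same peaks and dips recur in the 3 groups, for example the Vgf CpG at 71.4% and the Sbno2 CpG at 62.3%, and the widest bars over a whole amplicon are those of Lhx9.

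Lhx9 methylation differed from mouse to mouse more than that of any other amplicon measured. The amplicon mean was 24.3%, 13.7%, 18.7%, 31.2% and 34.9% in control mice. It was 20.0%, 11.1%, 8.10%, 8.86% and 27.6% in obese mice and 28.1%, 11.8%, 11.4%, 16.6% and 26.7% in formerly obese mice. Each group held mice on both sides of 20%, so the groups overlapped widely. The SD within groups was 8.39 percentage points, the highest of 23 amplicons, and the 15 amplicons away from these genes had 0.238 to 1.95 points. The other named genes had 1.82 points (Vgf), 1.19 (Epha6), 0.841 (Dcc), 0.245 (Sbno2), 0.241 (Nfix), 0.143 (Arvcf) and 0.123 (Gata6).

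The 20 Lhx9 CpGs moved together. Across the 15 mice, the 190 pairs of Lhx9 CpGs had a median Pearson's r of 0.98 with a lowest value of 0.94, and after the group means were subtracted these were 0.98 and 0.93. In the other 7 amplicons the median r between CpGs was between −0.12 (Arvcf) and 0.20 (Vgf). CpGs of 1 amplicon share reads and mice, so these values are descriptions. The mice high at Lhx9 were not high at the other 7 named amplicons as a set. Over the 15 mice, r with Lhx9 was 0.53 for Nfix, 0.49 for Sbno2, 0.19 for Vgf, 0.15 for Arvcf, −0.12 for Dcc, −0.14 for Gata6 and −0.31 for Epha6. At the 15 amplicons away from these genes, r with Lhx9 ran from −0.63 to 0.38.

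**Figure D3:**
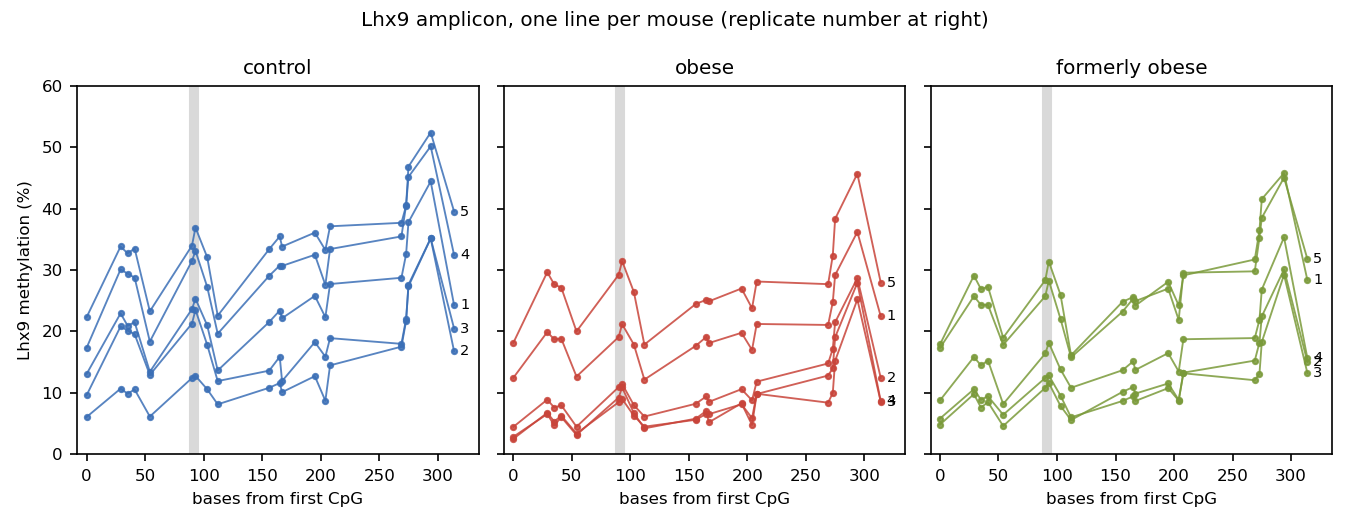
Methylation (%) of the 20 Lhx9 CpGs against distance in bases from the first CpG, with 1 line per mouse, its replicate number at the right and 1 panel per group. The grey band marks the 2 CpGs of the listed WGBS region. The lines run nearly parallel, and the mouse means span 13.7% to 34.9% in control, 8.10% to 27.6% in obese and 11.4% to 28.1% in formerly obese mice.

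The first comparison asked whether obesity was accompanied by a change in methylation at these genes. Lhx9 averaged 15.1% ± 8.44 (SD, n = 5) in obese and 24.6% ± 8.68 (SD, n = 5) in control mice. The difference was −9.43 percentage points (95% interval −21.0 to 2.13), with p = 0.12 by a two-sided exact permutation test and 0.63 after Benjamini-Hochberg adjustment over 23 amplicons. All 20 CpGs were lower on average in obese mice, with differences from −12.3 to −5.62 points, but these CpGs moved as one and do not count as separate evidence. The difference was about the size of the spread between mice and did not pass the test. None of the 8 amplicons was called in obese against control mice, beside 0% of all 23. The smallest p that 5 against 5 mice can give is 0.0079, which becomes 0.183 for 1 amplicon after adjustment over 23, so a call at an adjusted p under 0.05 needed at least 4 amplicons at that p. The absence of calls therefore says little, and the intervals carry the comparison.

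The other 7 amplicons had narrow intervals around 0 in obese against control mice. The difference was 0.90 points for Epha6 (−0.73 to 2.53), 0.094 for Vgf (−2.42 to 2.61) and 0.27 for Dcc (−0.89 to 1.43). It was −0.21 for Nfix (−0.54 to 0.13), 0.048 for Gata6 (−0.12 to 0.22), −0.023 for Sbno2 (−0.36 to 0.31) and −0.012 for Arvcf (−0.21 to 0.18). A change of 3 points or more was outside each of these 7 intervals, whereas the Lhx9 interval reached from −21.0 to 2.13.

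**Figure D4:**
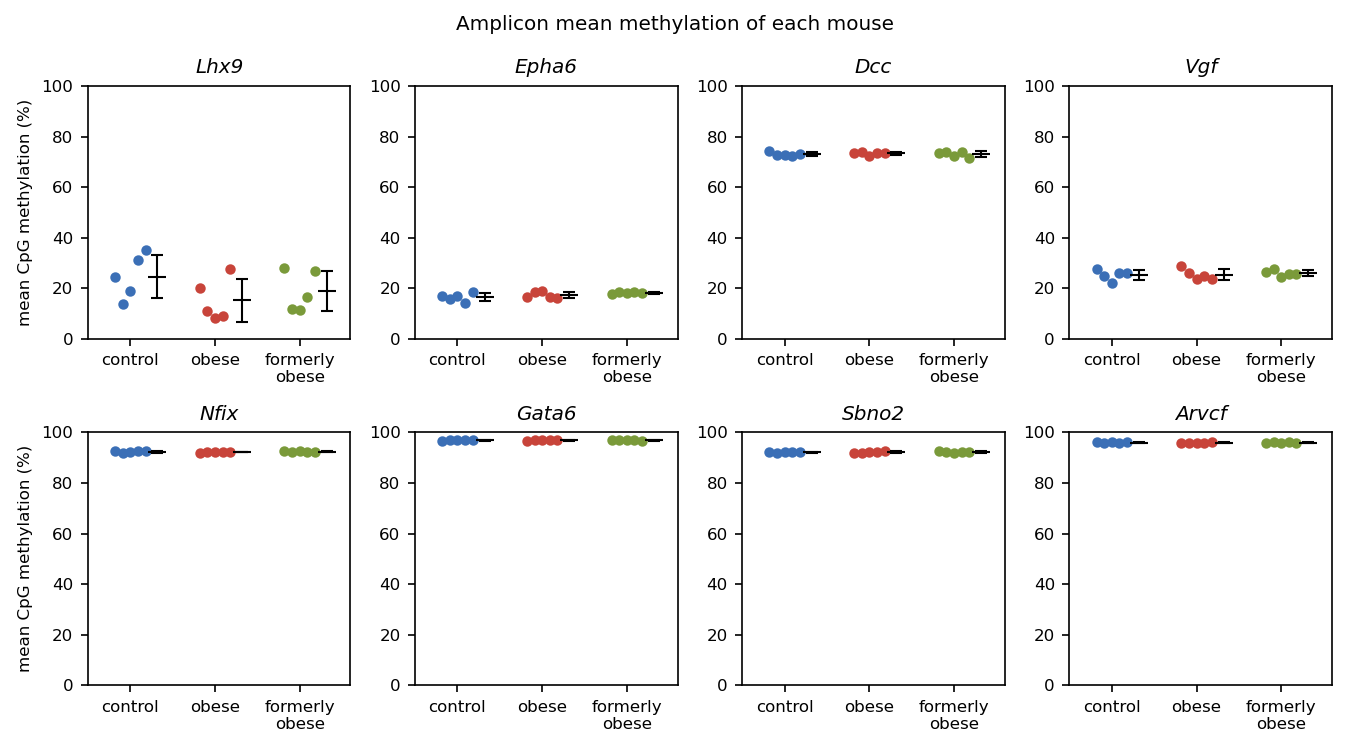
Mean methylation (%) of each amplicon in each mouse, with 1 panel per gene on the same axis from 0 to 100%. Coloured points are mice, and the black bar beside each group is the mean with its SD (n = 5). The Lhx9 points spread from 8.10% to 34.9%, while the points of Nfix, Gata6, Sbno2 and Arvcf lie within 1 percentage point of each other in each gene.

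Single CpGs were compared with limma over all 233 CpGs, and a CpG was called at an adjusted p under 0.05. In obese against control mice, 0 of the 87 CpGs at these genes were called, beside 0.429% of all 233. At an unadjusted p under 0.05, 3 of the 87 and 9.87% of all CpGs passed. An exact permutation test per CpG also gave 3 of the 87, and its share of all 233 was not counted. The exact test could call none unless at least 37 of the 233 CpGs reached its smallest p, so its 0 calls are not informative. The 3 CpGs from limma were 1 each in Nfix, Arvcf and Lhx9. At the Lhx9 CpG chr1:138838652, methylation was 32.7% ± 8.31 (SD, n = 5) in obese and 43.5% ± 8.12 (SD, n = 5) in control mice, with an adjusted p of 0.44 by limma. At the Arvcf CpG chr16:18402907 it was 96.3% ± 0.241 against 95.8% ± 0.399, and at the Nfix CpG chr8:84729980 it was 93.7% ± 0.272 against 94.5% ± 0.662. The adjusted p was 0.43 for both by limma. For the remaining genes, the CpGs with the smallest p differed by 4.39 points in Epha6, −4.15 in Vgf, 0.66 in Dcc, 0.41 in Gata6 and −0.41 in Sbno2.

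After the switch to the low-fat diet, the question was whether methylation stood nearer to that of control or of obese mice. Lhx9 averaged 18.9% ± 8.02 (SD, n = 5) in formerly obese mice. The difference from control mice was −5.66 points (95% interval −17.2 to 5.90, adjusted p = 0.84, exact permutation test). The difference from obese mice was 3.77 points (−7.79 to 15.3, adjusted p = 0.83, exact permutation test). Neither difference exceeded the spread between mice, so the data did not place the formerly obese mice closer to either group.

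Of the 8 amplicons, Epha6 had the smallest p against control mice. Its mean was 17.5%, 18.2%, 18.2%, 18.6% and 18.1% in formerly obese mice. In control mice it was 16.9%, 15.4%, 16.9%, 14.2% and 18.4%, so 4 of 5 control mice were below all formerly obese mice and 1 was not. The difference was 1.77 points (95% interval 0.13 to 3.4), with an exact permutation p of 0.040 and an adjusted p of 0.23 over 23 amplicons. Of the 21 CpGs, 14 were higher and 7 lower, with differences from −2.62 to 8.58 points and a median of 1.14. At chr16:60605133, the most methylated Epha6 CpG, the level was 52.5% ± 3.75 (SD, n = 5) in formerly obese and 43.9% ± 3.34 (SD, n = 5) in control mice, a difference of 8.58 points with an adjusted p of 0.26 by limma. The neighbouring CpG at chr16:60605138 was at 39.6% and 31.0%. Obese mice were in between at both, with 47.8% and 35.7%. At the first Epha6 CpG, chr16:60605091, control mice read 0%, 11.8%, 42.1%, 8.33% and 0%. Such coarse steps can arise when few reads cover a CpG. The part of read depth in the Epha6 differences was not tested.

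None of the 8 amplicons was called in formerly obese against control mice (0% of all 23) or in formerly obese against obese mice (0% of all 23), where the same limit of the exact test applied. Of the 87 CpGs, 0 were called in formerly obese against control mice by limma, beside 0.429% of all 233, and 4 had an unadjusted p under 0.05, beside 9.87% of all. These were 2 in Epha6 and 1 each in Arvcf and Vgf. The Arvcf CpG was again chr16:18402907, at 96.4% ± 0.224 in formerly obese mice. At the Vgf CpG chr5:137030978, the level was 26.1% ± 1.51 (SD, n = 5) in formerly obese and 31.7% ± 6.29 (SD, n = 5) in control mice. In formerly obese against obese mice, 0 of 87 were called, beside 0% of all, and 2 had an unadjusted p under 0.05, beside 4.72% of all. The exact permutation test per CpG gave 3 and 2 of the 87 at an unadjusted p under 0.05 in these comparisons. Its shares of all 233 were not counted.

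The smallest amplicon p between formerly obese and obese mice was that of Nfix. Its mean was 92.6%, 92.3%, 92.6%, 92.4% and 92.3% in formerly obese and 92.1%, 92.2%, 92.1%, 92.3% and 92.3% in obese mice. The difference was 0.26 points, with an exact permutation p of 0.016 and an adjusted p of 0.37, and the groups overlapped. The Nfix CpG with the smallest p, chr8:84729944, was at 79.4% and 78.0%. The other CpG with an unadjusted p under 0.05 was in Dcc, chr18:72115351, at 92.4% ± 1.47 in formerly obese and 90.9% ± 0.859 in obese mice (adjusted p = 0.88 for both by limma).

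WGBS gave a second view of the same loci as a list of differentially methylated regions (DMRs) between obese and control mice, with a position and a direction but no level. The list held 4123 regions called higher (hyper) and 4076 called lower (hypo) in obese mice. Within 70 kb, 6 of the 8 genes had a DMR, beside 47.1% of all genes. Inside the gene, 3 of 8 had one, beside 11.2% of all genes, and these were Lhx9, Epha6 and Nfix. The shares of all genes were not matched for gene length, and a longer gene has more room for a DMR. Dcc spans 1097438 bases, Epha6 952049 and Nfix 95627. Epha6, a very long gene, held 3 DMRs, of which 1 hypo-DMR (chr16:60604728-60604827) lay 264 bases from the amplicon, in an intron. Nfix held a hyper-DMR of 9 bases in a coding exon (chr8:84713840-84713848), 16038 bases from its amplicon. Dcc, Gata6 and Sbno2 had DMRs nearby but outside the gene, and Vgf and Arvcf had none within 70 kb.

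One of the 23 amplicons overlapped a DMR, and it was that of Lhx9. The region was a hyper-DMR of 5 bases, chr1:138838448-138838452, which holds 2 CpGs that both lie in the sequence shown for Lhx9. In BSP-seq, the mean of these 2 CpGs was 24.5%, 12.6%, 22.4%, 32.3% and 35.4% in control mice. It was 20.1%, 11.2%, 8.72%, 10.0% and 30.3% in obese mice. The obese mean was 16.1% ± 9.14 (SD, n = 5) and the control mean 25.4% ± 8.99 (SD, n = 5), a difference of −9.36 points with p = 0.14 by a two-sided exact permutation test. The list thus gave the region as higher in obese mice, whereas the amplicon means ran the other way without passing the test. The paper listed a region only above a set methylation difference or fold change. By limma, the intervals of the 2 CpGs in obese against control mice were −20.2 to 1.84 and −21.6 to 2.55 points. A rise as large as either of the paper's cutoffs lay outside both intervals. Why the list and the amplicon differ was not tested. Formerly obese mice averaged 19.6% ± 8.44 (SD, n = 5) at these CpGs.

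Expression differed widely between the genes. Dcc and Epha6 had 0 counts in all 15 libraries, and a count of 0 allows up to 3 counts, or 0.132 to 0.197 CPM depending on the library (CPM are counts scaled to a common library size, and the limit covers counting error only). Lhx9 had 2 counts in all, 1 in an obese and 1 in a formerly obese mouse. Vgf had 1 to 4 counts in each library and 35 in all. These 4 genes did not pass the filter on low counts and were not tested. They included the 3 genes with the least methylated amplicons, and Dcc.

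The other 4 genes, Sbno2, Gata6, Nfix and Arvcf, passed the filter and had 99 or more counts in every library. Per kilobase of transcript, Sbno2 averaged 18.3 CPM over the 15 libraries, Gata6 17.5, Nfix 11.2, Arvcf 1.57 and Vgf 0.0483. Sbno2 was above Gata6 in 9 of 15 libraries, so these neighbours did not differ beyond their spread, while every next step in that order held in 15 of 15 libraries. In whole-gene CPM, the control mean of Gata6 was 66.9 ± 4.36 (SD, n = 5), the obese mean 68.4 ± 2.55 and the formerly obese mean 63.3 ± 3.49. Nfix was at 63.6 ± 6.79, 63.3 ± 2.61 and 57.5 ± 3.75, and Arvcf at 7.35 ± 1.27, 7.81 ± 0.731 and 7.04 ± 0.754 in the same order. On the opposite strand, Nfix overlaps Lyl1 and G430095P16Rik, and Gata6 overlaps 1010001N08Rik. The libraries were stranded, but the strand setting of the counting is not given in the sources used here, so reads of these pairs could be mixed.

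Sbno2 showed the smallest p among the 4 tested genes. Its CPM was 107, 90.8, 97.4, 85.4 and 97.6 in obese mice and 94.6, 82.6, 78.4, 87.1 and 73.6 in formerly obese mice. In control mice it was 88.3, 87.6, 87.8, 84.9 and 86.8. The formerly obese mice were lower on average than obese mice, but 2 of 5 exceeded the lowest obese mouse. The log2 fold change was −0.20 ± 0.064 (SE), with an adjusted p of 0.17 by edgeR's quasi-likelihood test (unadjusted 0.0062). That met the cutoffs on p and adjusted p but not the fold cutoff of 1.2. Against control mice, Sbno2 differed by 0.14 in obese mice (adjusted p = 0.46, edgeR) and by −0.06 in formerly obese mice (adjusted p = 0.66).

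**Figure D5:**
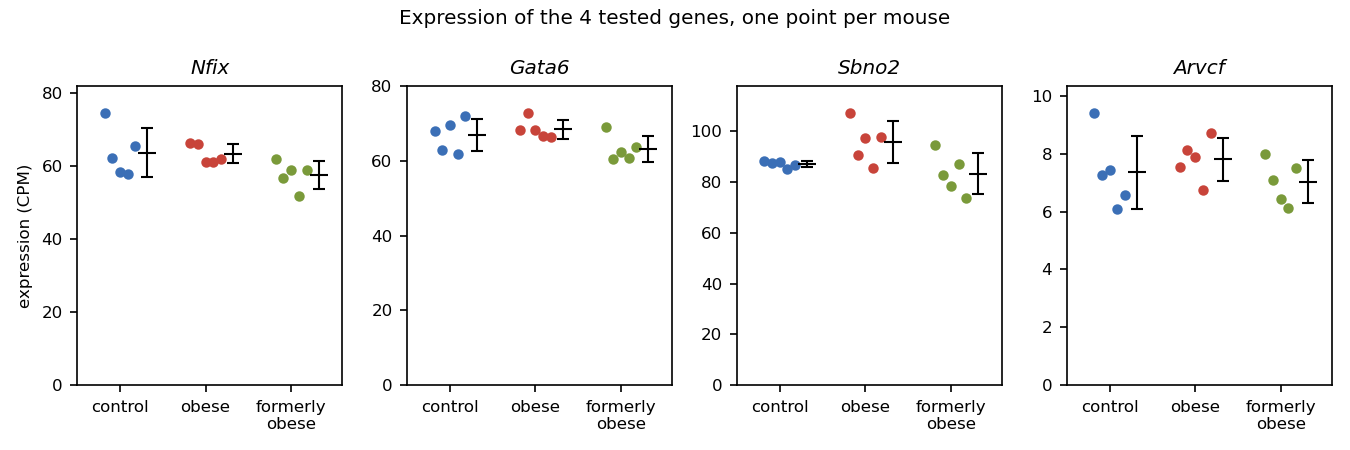
Expression in CPM of Nfix, Gata6, Sbno2 and Arvcf in each mouse, with axes that start at 0 and differ between panels. Coloured points are mice and black bars the mean with its SD (n = 5). Sbno2 runs from 85.4 to 107 CPM in obese and from 73.6 to 94.6 CPM in formerly obese mice, and the groups overlap in all 4 panels.

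Calls required a change of more than 1.2-fold, p under 0.01 and an adjusted p under 0.25, which are the cutoffs of the study. In obese against control mice, 0 of the 4 tested genes were called, beside 1.58% of 12961 genes. At an unadjusted p under 0.05 by edgeR there were 0 of 4, beside 10.9% of genes. In formerly obese against control mice 0 of 4 were called, beside 3.72% of genes. The 1 gene with an unadjusted p under 0.05, beside 16.7% of genes, was Nfix. Its log2 fold change was −0.15 ± 0.066 (SE; adjusted p = 0.27, edgeR). In formerly obese against obese mice 0 of 4 were called, beside 2.65% of genes. Sbno2 and Gata6, 2 of the 4, had an unadjusted p under 0.05, beside 13.4% of genes. Gata6 differed by −0.11 ± 0.051 (SE; adjusted p = 0.35, edgeR), and Nfix by −0.14 (adjusted p = 0.38). DESeq2 also called 0 of 4 in each comparison. It gave 1, 1 and 2 genes at an unadjusted p under 0.05, and its share of all genes was not counted. The 95% intervals of the 12 log2 fold changes all lay between −0.40 and 0.34. Arvcf, the least expressed of the 4, set both ends.

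Methylation and expression of the same gene were compared across mice for the 4 tested genes, with BSP-seq and RNA-seq samples of the same title taken as the same mouse. Over all 15 mice, Pearson's r was 0.05 for Nfix, −0.25 for Gata6, 0.17 for Sbno2 and 0.24 for Arvcf, with Spearman's rho of −0.18, −0.27, 0.12 and 0.20. After subtracting group means, r was 0.29, −0.32, 0.39 and 0.31, and rho 0.32, −0.44, 0.46 and 0.29. The raw permutation p of these 8 relations ran from 0.23 to 0.87 for r and from 0.12 to 0.67 for rho. The smallest adjusted p was 0.63 for r and 0.54 for rho, so no relation was detectable with these mice. Without the 2 mice farthest from the median methylation, r over the others was −0.02, −0.25, −0.18 and 0.48. Methylation at these 4 amplicons varied by under 1 percentage point between mice, which leaves little range for any relation.

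The genes whose expression was most like each tested member over the 15 libraries, among 11035 genes, were Orai3 for Nfix (r = 0.87), Tob1 for Gata6 (r = 0.92), U2af2 for Sbno2 (r = 0.92) and Dusp18 for Arvcf (r = 0.82). Each is the highest of many correlations and is given as a description.

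The relatives of the 8 genes showed few calls. Of all genes, 0.718% were called higher and 0.864% lower in obese against control mice, 1.85% and 1.87% in formerly obese against control mice, and 1.23% and 1.42% in formerly obese against obese mice. Of 21 other Eph receptors and ephrins, 14 were expressed enough to test, although Epha6 was not. Efnb2 (log2 fold change 0.27 ± 0.067 SE, adjusted p = 0.042, edgeR) rose and Efna4 (−0.28 ± 0.088, adjusted p = 0.11) fell in formerly obese against control mice, and in the other comparisons 0 of 14 were called. Of 10 netrin receptors and ligands, 4 were tested, and Unc5a, a receptor of the UNC5 family that also binds netrin, was lower in formerly obese than in obese mice (−0.55 ± 0.15, adjusted p = 0.11). Of 9 granin and prohormone-processing genes related to Vgf, 8 were tested. Pcsk1n, an inhibitor of prohormone convertase, had only 4 to 33 counts in each library. It fell in formerly obese against obese mice (−1.60 ± 0.40, adjusted p = 0.081, edgeR). In the other 2 comparisons 0 of these 4 and 0 of these 8 were called. No gene was called in any comparison among 3 tested of 13 LIM homeobox genes and partners, 3 of 3 other nuclear factor I genes, 3 of 7 GATA factors and partners, 9 of 10 p120 catenin relatives and cadherin partners, and Sbno1, by edgeR.

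The uncalled relatives with the smallest p stayed short of a cutoff. Epha1 in formerly obese against control mice differed by 0.22 (adjusted p = 0.048, edgeR), and Pkp3, a plakophilin of the p120 family, by −0.18 in formerly obese against obese mice (adjusted p = 0.14), both under the fold cutoff. Nfic, the nuclear factor I gene with the smallest p against control, differed by −0.21 in obese (adjusted p = 0.44) and −0.26 in formerly obese mice (adjusted p = 0.17). Epha4 and Ntn4 differed by −0.22 and −0.31 in obese against control mice, with adjusted p of 0.32 and 0.34 by edgeR. In the LIM homeobox list, Isl1 differed by −0.49 in obese and −0.25 in formerly obese against control mice (adjusted p = 0.52 and 0.67, edgeR). In the GATA list, Gata4 differed by 0.86 in formerly obese against obese mice (adjusted p = 0.36, edgeR). Both were low, with 8 to 27 counts in each library for Isl1 and 4 to 41 for Gata4.

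Markers of the labelled tissue were abundant. The 7 epithelial markers summed to 10259 to 12182 CPM in each library, whereas 7 markers of enteric neurons, 4 of enteric glia and 6 of smooth muscle summed to under 4 CPM, with Sox10 at 0 in all 15 libraries. Fibroblast markers summed to 2.34 to 30.7 CPM, immune markers to 11.6 to 34.2, endothelial markers to 3.02 to 9.03 and adipocyte markers to 2.82 to 12.1. The adipocyte sum was nearly all Cidec (mean 5.63 CPM), with Adipoq at 0.0116 and Lep and Plin1 at 0 in all 15 libraries. The endothelial sum was mostly Pecam1 (5.07 CPM), with Tek at 0.276, Kdr at 0.0806 and Cdh5 at 0.0486. Enteroendocrine markers summed to 153 to 370 CPM. Small-intestinal markers summed to 914 to 1297 CPM in control mice, to 1056 to 1348 in obese mice and to 1251 to 1542 in formerly obese mice. Mep1a and Fabp2 averaged 669 and 446 CPM, while Apoa1, Apoa4 and Lct of the same list averaged 0.214, 0.0352 and 0.128. Of the 8 small-intestinal markers, 5 were tested. All 5 were called higher in formerly obese against control mice (beside 1.85% of all tested genes). Posterior Hox genes summed to 433 to 536, 374 to 494 and 307 to 408 CPM. Of these 7 genes, 6 were tested and 5 were called lower in formerly obese against control mice (beside 1.87% of all tested genes). In formerly obese against obese mice, 0 of the 5 small-intestinal markers were called, beside 2.65% of all tested genes. Of the 6 Hox genes, 1 was called lower there (Hoxd10, beside 1.42%). In obese against control mice, Alpi was called higher (1 of 5, beside 0.718%) and Hoxd12 lower (1 of 6, beside 0.864%). Of the other markers, Krt20 (1 of 7 tested epithelial markers) and Cidec (the 1 tested adipocyte marker) were called higher in formerly obese against control mice. Pyy (1 of 7 tested enteroendocrine markers) was called lower in formerly obese against obese mice. The part of these cell types in the Nfix, Gata6 and Sbno2 differences in formerly obese mice was not tested. In bulk tissue, fewer cells of a type and less RNA per cell cannot be told apart.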

How the data were processed

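RNA-seq, BSP-seq and WGBS were done by the authors on 5 mice per group. For RNA-seq the authors mapped reads to mm10 (GRCm38) with TopHat2 2.0.4 (stranded libraries) and deposited raw counts per gene from HTSeq. The BSP-seq values that the authors deposited are a fraction from 0 to 1 for every CpG in every mouse and were multiplied here by 100 (percent had been assumed when the tests were chosen). Bismark 0.14.0 and 0.7.8 are named in the submitters' notes. Of 253 entries, 20 repeats were dropped, and all 233 CpGs lay on a CG of GRCm38. CpGs at most 1000 bases apart formed 1 amplicon. For WGBS the deposited DMR list of positions was used, whose starts count from 0, since all 8199 regions then begin and end on a CG. Deposited tables of the authors' own DESeq2 1.2.10 comparisons (fold changes and p-values) were not used.

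Counts were fitted in R 4.3.3 with edgeR 4.0.16 (filterByExpr, TMM, quasi-likelihood, all 15 libraries, group as the only term). CPM are TMM-scaled, and a transcript length divided levels per kilobase. CpGs were fitted with limma 3.58.1 on percentages in all 15 mice. Amplicon means were compared by a two-sided exact permutation test, and their 95% intervals use the SD pooled over the 3 groups. Correlations used 100000 permutations, within groups for the second form. DESeq2 1.42.0 and other scalings, filters, scales and left-out mice were alternatives. Methods were tested on simulated data. Positions were annotated with GENCODE vM21. No 2 of the 15 BSP-seq samples had identical values.

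The 8 genes and all gene lists (relatives of each gene, markers of epithelium, enteroendocrine cells, enteric neurons, enteric glia, smooth muscle, fibroblasts, endothelium, immune cells, adipocytes and small intestine, and posterior Hox genes) were chosen with earlier results of these data known. Named were the 8 genes, the called relatives, the 2 relatives with the smallest p per list and comparison (those printed were chosen after their values were seen), the CpG with the smallest p per gene and comparison, and the lowest and highest CpG of each amplicon. Epha6 chr16:60605138 and other CpGs described beside their neighbours were chosen after their values were seen. P-values measure the spread between 5 mice per group. DNA and RNA came from one extraction kit per colon, and that equal titles mark one mouse was assumed.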

Additional observations from a re-analysis of the deposited data

How the results depend on the processing

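No gene, CpG or amplicon near the 8 genes was called in any comparison, and this held under all alternatives run except 1, although the exact tests of amplicons and CpGs could hardly reach a call at this number of mice. A rule of an unadjusted p under 0.05 with a difference over 10 percentage points called 1 of 87 CpGs, at Lhx9, in obese against control mice. The share of all CpGs under that rule was not counted. Counting DMRs inside the gene only left 3 of 8 genes in place of 6. The main limits are the 5 mice per group, the unknown read depth per CpG, and the SD of 8.39 points at Lhx9.

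The labels do not say that replicate numbers pair the mice. Deviations of same-numbered RNA-seq libraries correlated between −0.23 and 0.33. In BSP-seq they ran from −0.52 to 0.74, were over 0.1 in all 5 pairs of formerly obese and obese mice, and 12 of 30 checks matched a mouse best with its own number. With each CpG scaled by its SD, those 5 correlations were 0.040 to 0.13 (−0.13 to 0.059 without Lhx9), and 7 of 30 checks matched. With a replicate block 0 genes, 0 CpGs and 0 amplicons at these loci were called, and the exact sign-flip test cannot go below p = 0.0625. Lhx9 was lower in the obese mouse in 5 of 5 same-numbered pairs (exact sign-flip p = 0.0625, the smallest possible). Under the block, 20 of 20 Lhx9 CpGs had an unadjusted p under 0.05 by limma, against 1 without it (smallest adjusted p 0.098). These 20 CpGs moved as one and do not count as separate evidence, and the share of all CpGs under the block was not counted. Lhx9 also entered the correlations between same-numbered mice, so its block result is not separate from them.

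Signs changed among values none of which was called, and the cause was not tested. With the GC trend removed, the log2 fold changes of Sbno2 and Arvcf in formerly obese against control mice became 0.019 and 0.017. With the median over CpGs in place of the mean, differences in obese against control mice became −0.13 points (Gata6) and 0.11 (Arvcf), in formerly obese against control mice 0.13 (Dcc), −0.064 (Nfix) and −0.034 (Gata6), and in formerly obese against obese mice −0.94 (Vgf), 0.096 (Gata6) and −0.019 (Arvcf). On that scale r between methylation and expression became −0.13 (Nfix), −0.48 (Sbno2) and −0.080 (Arvcf). Leaving out 1 mouse moved the log2 fold change of Nfix in obese against control mice between −0.041 and 0.052 and of Arvcf in formerly obese against control mice between −0.13 and 0.035. It moved amplicon differences in obese against control mice between −0.72 and 0.67 points (Vgf), −0.15 and 0.063 (Sbno2), and −0.076 and 0.023 (Arvcf). In formerly obese against control mice the ranges were −0.24 to 0.40 (Dcc), −0.19 to 1.2 (Vgf), −0.088 to 0.14 (Nfix), −0.012 to 0.075 (Gata6) and −0.027 to 0.067 (Arvcf). In formerly obese against obese mice they were −0.54 to 0.13 (Dcc), −0.057 to 0.023 (Gata6) and −0.015 to 0.11 (Arvcf). It moved r between −0.18 and 0.14 for Nfix and −0.0051 and 0.33 for Sbno2. The Lhx9 difference in obese against control mice stayed between −12.6 and −6.85 points, while that of formerly obese against control mice ranged from −8.37 to −3.08 and against obese mice from 1.47 to 6.90.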
